A study of Homo sapiens with 9 samples.

Results

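The 10 genes described here (NKX2-2, PPP1R1A, NR0B1, STEAP1, PRKCB, ID2, FCGRT, CAV1, JAK1 and CCND1) are known targets whose expression the EWS/FLI fusion protein raises in Ewing sarcoma. They were followed in A673 cells, an established Ewing sarcoma line with this fusion, through every probe set of the array (a set of short probes read as 1 signal) whose annotation names 1 of them as its only gene. That rule gave 13 probe sets for 9 of the 10 genes, out of 22283 probe sets on the array and 19065 that name a single gene. No probe set was named for NR0B1 in the annotation used, and this gene was not analysed here. NKX2-2, PPP1R1A, STEAP1, FCGRT and JAK1 had 1 probe set each, and ID2, PRKCB, CCND1 and CAV1 had 2 each. All 13 passed the filter on dim probe sets, with mean signals of 693 to 15318.

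EWS/FLI joins the transcription-activating part of EWSR1 to the DNA-binding domain of FLI1, a member of the ETS family. ETS proteins bind a short core, GGAA, and the fusion also binds long runs of this core, called GGAA microsatellites, from which it switches on genes that the parent cell keeps silent. EZH2, the histone methyltransferase of Polycomb repressive complex 2, and histone deacetylases both act to hold chromatin closed, and the study asked what EZH2 contributes to Ewing tumour growth.

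Gene expression was measured on 9 arrays in 5 groups. For 48 hours, A673 cells had been transfected with 5 nM of EZH2 siRNA no.2 (2 arrays), with another EZH2 siRNA whose title has no number, here called the unnumbered EZH2 siRNA (1 array, with no replicate number) or with a control siRNA (2 arrays). In the other arm the cells spent 24 hours in TSA (trichostatin A, a histone deacetylase inhibitor) at 100 nM (2 arrays) or in its solvent, DMSO, at 0.01% (2 arrays). All groups are 1 cell line with the fusion present, so neither the loss of the fusion nor a second line is among them. Replicates are titled biological, without saying whether cultures were separate, so p-values reflect only the variation among these arrays, which may be technical. Values are MAS5 signals on a linear scale, and log2 fold changes are differences of group means of log2(signal + 25.1). Signals of different probe sets are not on a common scale and were not set against each other.

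CD99, NKX2-2, FLI1 and EWSR1, listed as genes of a Ewing tumour cell, had signals of 723 to 19651 over all arrays. NKX2-2 is itself among the genes described here, and these signals are not a test for the fusion. Of markers of other cell types, 0 of 4 muscle and 0 of 3 epithelial genes passed the filter, and 1 of 3 blood (CD3E) and 1 of 4 endothelial genes (PECAM1) did, with no signal above 166 in these 4 lists. EZH2 itself, the check of the siRNA labels, had signals of 572 and 271 with EZH2 siRNA no.2 and 681 with the unnumbered EZH2 siRNA, against 1130 and 1172 with the control siRNA. It had 1257 and 1055 in TSA, against 990.1 and 861 in DMSO. The hybridisation control probe sets (spiked-in RNA) separated the 4 replicate 2 arrays from the other 5 arrays. Their mean log2 signals were 10.43 to 10.53 and 9.80 to 10.16. Within those 5, EZH2 siRNA no.2 replicate 1 (9.81) and the unnumbered EZH2 siRNA (9.80) lay below the other replicate 1 arrays, at 10.06 to 10.16. The split was set at the widest gap, and no label names a batch. Values are therefore also given within a replicate number.

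Promoter sequences show what the ETS core looks like at these genes. RefSeq (GRCh38.p14) gave 13 promoters for 8 of the 10 genes, and none for PPP1R1A or CCND1. The 250 bases before each start were searched on both strands for GGAA (TTCC on the other strand). The core was present in 10 of the 13 promoters, and in 92.7% of all 35116 promoters of this length, so its presence does not set these genes apart. A direct repeat of the core, GGAAGGAA or TTCCTTCC, was found in 2 of the 13, both overlapping starts of CAV1, and in 3.06% of all promoters. The longer ETS word CCGGAAG, or CTTCCGG, was found in 1 of the 13, the first JAK1 promoter, and in 8.52% of all promoters. These 3 words overlap, since each holds the core. No core was found in this window at PRKCB, at 1 of the NKX2-2 starts or at 1 of the CAV1 starts. A match is a description of the letters and not a binding site, and long GGAA microsatellites can lie further upstream. The 4 promoters printed are those of a transcription factor with a single core (NKX2-2), of the member that, beside PPP1R1A, was lower without overlap both with EZH2 siRNA no.2 and in TSA (FCGRT), of the member with the ETS word (JAK1), and of the member with the repeated core (CAV1). Each is given 5′ to 3′ in the direction of the gene, with every GGAA and TTCC in capitals.
NKX2-2, chr20:21522690-21522939, minus strand: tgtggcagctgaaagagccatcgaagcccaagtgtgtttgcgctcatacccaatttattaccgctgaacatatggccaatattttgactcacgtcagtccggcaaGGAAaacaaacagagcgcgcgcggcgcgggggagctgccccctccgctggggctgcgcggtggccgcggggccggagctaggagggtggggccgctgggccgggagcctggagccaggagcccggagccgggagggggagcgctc
FCGRT, chr19:49512411-49512660, plus strand: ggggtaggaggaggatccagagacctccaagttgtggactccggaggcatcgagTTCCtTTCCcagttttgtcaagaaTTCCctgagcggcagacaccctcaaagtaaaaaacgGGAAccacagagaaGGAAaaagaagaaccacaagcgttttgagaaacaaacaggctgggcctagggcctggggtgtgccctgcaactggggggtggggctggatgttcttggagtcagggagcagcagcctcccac
JAK1, chr1:65067747-65067996, minus strand: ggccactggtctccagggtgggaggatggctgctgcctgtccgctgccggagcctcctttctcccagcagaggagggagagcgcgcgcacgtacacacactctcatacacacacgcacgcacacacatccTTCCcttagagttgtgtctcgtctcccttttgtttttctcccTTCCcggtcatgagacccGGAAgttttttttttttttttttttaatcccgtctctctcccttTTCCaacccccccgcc
CAV1, chr7:116524759-116525008, plus strand: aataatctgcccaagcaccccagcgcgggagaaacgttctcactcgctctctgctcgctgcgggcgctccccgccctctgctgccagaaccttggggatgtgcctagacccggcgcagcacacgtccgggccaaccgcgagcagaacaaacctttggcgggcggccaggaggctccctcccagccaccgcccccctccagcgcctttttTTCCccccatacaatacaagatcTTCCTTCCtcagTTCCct

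With EZH2 siRNA no.2 the 9 genes stood below the control siRNA. The genes had been chosen with earlier results of these data known, so the counts below describe them and are not an independent test. PPP1R1A, an inhibitor of protein phosphatase 1, was at 0.326-fold of the control siRNA, NKX2-2 at 0.509-fold, and ID2, FCGRT, JAK1 and PRKCB at 0.659-fold to 0.734-fold on their brightest probe sets. In whole-culture RNA, fewer cells with a transcript and less of it per cell cannot be told apart. All 13 member probe sets of these 9 genes had a lower mean than with the control siRNA. On the brightest probe set of each gene, 9 of the 9 genes were lower, where 41.1% of all genes were. In at least 1 other processing or with 1 array left out, CAV1 212097_at (quantile normalization among them), STEAP1, ID2 201566_x_at and both CCND1 probe sets turned higher. The median log2 fold change over the brightest probe sets of the 9 genes was −0.59, against 0.07 over those of all 11963 genes named on the array, dim ones included. The 2 groups did not overlap for 7 of the 13 probe sets, all lower, where 12.7% of the 19065 single-gene probe sets were lower and 22.5% higher without overlap. None of the 13 passed limma after Benjamini-Hochberg adjustment over the 13671 probe sets tested, and 0 of those passed in all (0% called, lowest adjusted p = 0.920). At an unadjusted limma p under 0.05, 5 of 13 member probe sets were lower (PPP1R1A, NKX2-2, JAK1, ID2 201565_s_at and PRKCB 207957_s_at) and 0 higher, against 1.72% lower and 3.55% higher of all tested.

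Both replicate numbers had a median below 0, further from it in replicate 2. Within replicate 2 all 13 probe sets were lower and the median over the 9 genes was −0.72, while within replicate 1 there were 10 lower and the median was −0.22. EZH2 siRNA no.2 replicate 2 is the array with the lowest EZH2 signal, and a link between that signal and the member values was not tested. Without EZH2 siRNA no.2 replicate 2, 10 of the 13 probe sets were lower, with a median over the 13 of −0.34. Without control siRNA replicate 2, 11 were lower, with a median of −0.42, where all arrays gave −0.50. Both fits leave 1 array in a compared group that had 2, so p-values are not counted for them. With all arrays, 5 of the 13 were lower at an unadjusted limma p under 0.05, against 235 of the 13671 tested. Without DMSO replicate 1, which enters only the estimate of spread, 1 was lower at such a p, against 183 of all tested. With limma's trend left out there was 1, against 197, and after quantile normalization there were 2, against 305. Other alternatives gave more. With the replicate number as a block there were 6, against 366, and with all arrays scaled to a common median 6, against 458.

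**Figure D1:**
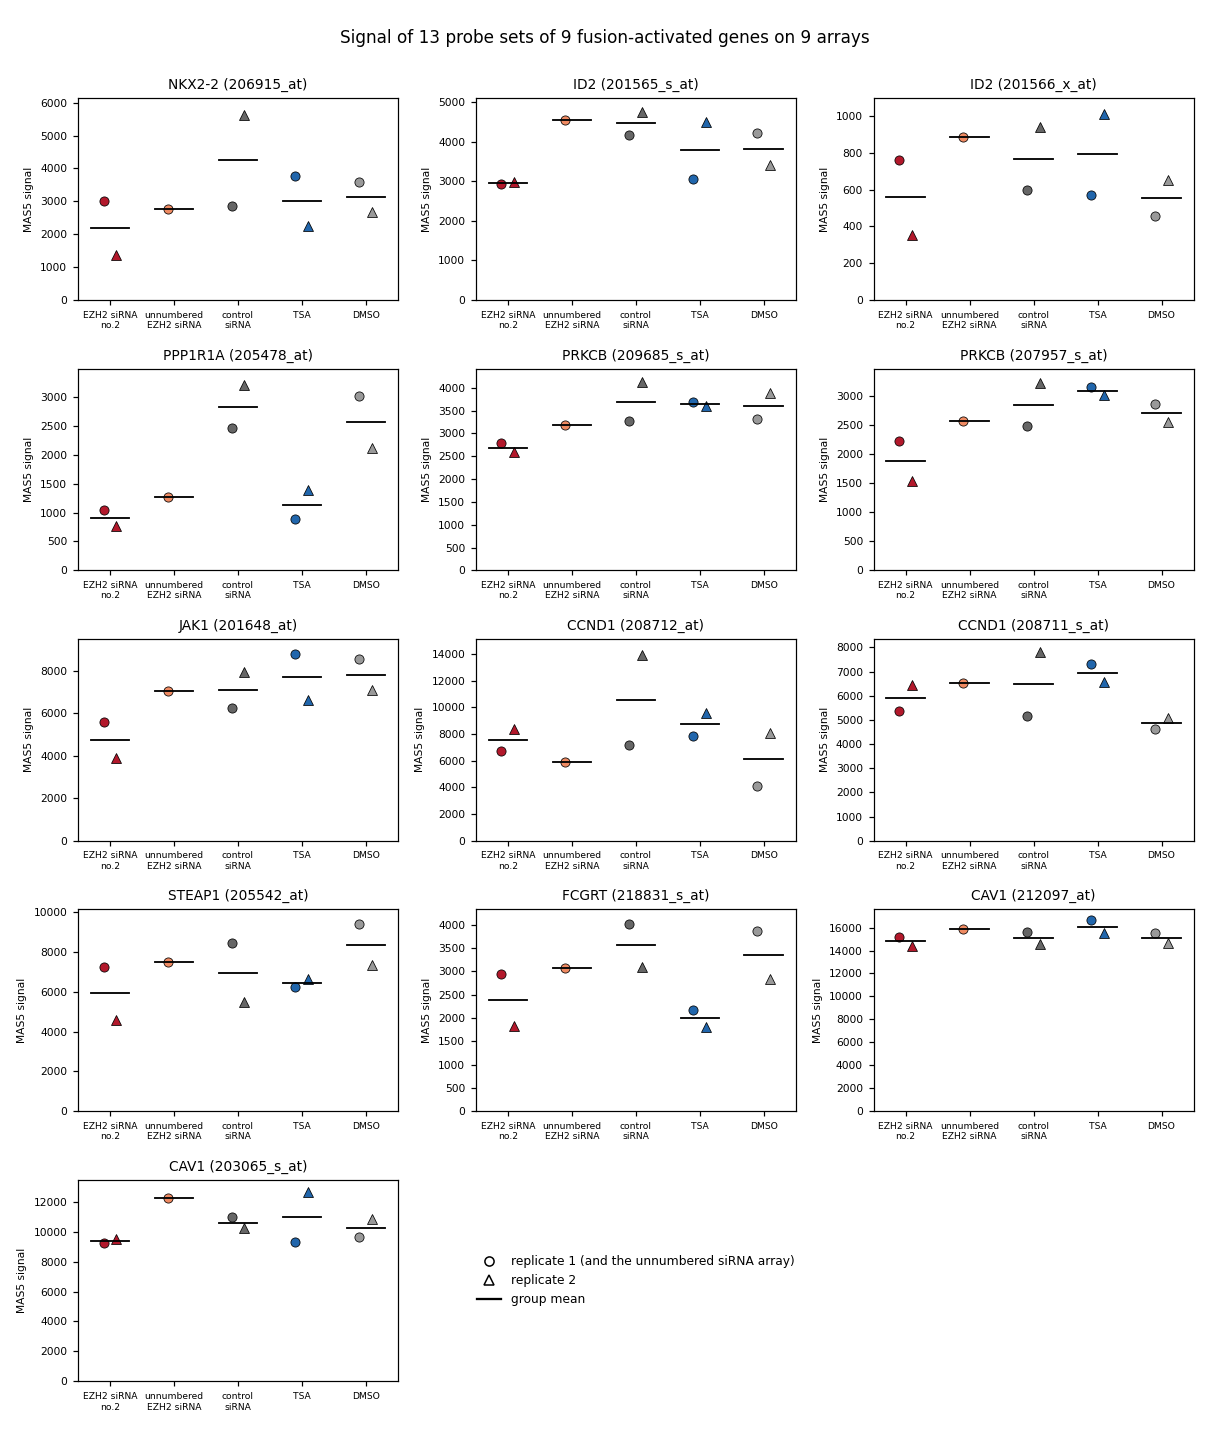
MAS5 signal (linear, from 0) of the 13 probe sets on each of the 9 arrays, by treatment group; circles are replicate 1 and the unnumbered EZH2 siRNA array, triangles replicate 2, and bars group means. PPP1R1A has 777 to 1394 on the 5 treated arrays, below the 2121 to 3209 of the 4 control arrays, while the CAV1 212097_at signals run only from 14409 to 16635.

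Of the transcription regulators, NKX2-2, a homeodomain repressor that Ewing cells need for transformation, had signals of 3022 and 1363 with EZH2 siRNA no.2 and 2763 with the unnumbered EZH2 siRNA, against 2859 and 5631 with the control siRNA. The lowest and the highest of these 5 arrays are both of replicate 2, and the 2 replicate 1 arrays are alike. Its log2 fold change with EZH2 siRNA no.2 was −0.97 (SE 0.42, limma adjusted p = 0.920), made of 0.08 in replicate 1 and −2.03 in replicate 2, and was −0.41 without EZH2 siRNA no.2 replicate 2. It was −0.53 (SE 0.52) with the unnumbered EZH2 siRNA, and −0.05 against control siRNA replicate 1 alone. NKX2-2 in TSA had 3775 and 2246, against 3593 and 2669 in DMSO, overlapping groups with a log2 fold change of −0.09 (95% interval −1.02 to 0.84).

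ID2, which blocks the DNA binding of basic helix-loop-helix factors and so opposes differentiation, had signals of 2926 and 2990.1 with EZH2 siRNA no.2 on its brighter probe set, 201565_s_at. It had 4552 with the unnumbered EZH2 siRNA, against 4163 and 4761 with the control siRNA. The EZH2 siRNA no.2 arrays lay below all 3 other transfected arrays and below all 4 arrays of the other arm. Its log2 difference was −0.59 (SE 0.25; adjusted p = 0.920 by limma), with −0.50 and −0.67 by replicate number. The unnumbered EZH2 siRNA gave 0.03 (SE 0.31), and the direct comparison of the siRNAs gave −0.62 for no.2 over unnumbered (95% interval −1.29 to 0.05, limma adjusted p = 1.00). The dimmer ID2 probe set, 201566_x_at, whose suffix marks probes that can match other transcripts, had 762 and 355 with EZH2 siRNA no.2 and 887 with the unnumbered EZH2 siRNA, against 600 and 939 with the control siRNA, with no.2 replicate values of 0.33 and −1.34. The ID2 signal in TSA, 3062 and 4495 on the brighter probe set, overlapped the 4219 and 3418 of DMSO (log2 −0.03, SE 0.25).

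Of the signalling genes, PPP1R1A carried the largest difference among the 13 probe sets in each of the 3 treatment comparisons. Its signals were 1044 and 777 with EZH2 siRNA no.2 and 1273 with the unnumbered EZH2 siRNA, against 2464 and 3209 with the control siRNA. In the other arm they were 887 and 1394 in TSA, against 3027 and 2121 in DMSO. Every treated array lay below every control array. This held for 1 of the 13 member probe sets and for 1.25% of the 19065 single-gene probe sets, and the opposite order for 0 of the 13 and for 1.99%; these counts were added after the values had been seen.

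The log2 fold change of PPP1R1A was −1.62 (SE 0.31, 95% interval −2.29 to −0.94) with EZH2 siRNA no.2, with −1.22 and −2.01 by replicate number. It was −1.13 (SE 0.37, 95% interval −1.95 to −0.30) with the unnumbered EZH2 siRNA, and −0.94 against control siRNA replicate 1 alone. It was −1.17 (SE 0.31, 95% interval −1.84 to −0.50) in TSA, with −1.74 and −0.60 by replicate number. None of the 3 passed limma over all probe sets (adjusted p = 0.920, 0.951 and 1.00). Between the control treatments, DMSO over control siRNA was at −0.15 (95% interval −0.82 to 0.52). The siRNA no.2 effect minus the TSA effect was −0.45 (95% interval −1.40 to 0.50), so these arrays do not order the sizes of the 2 effects. No member passed in that comparison of effects (0% called of 13671, with 0 of 13 at an unadjusted limma p under 0.05 against 0.600% lower and 1.11% higher).

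PRKCB encodes protein kinase C beta, and its 2 probe sets gave like values. On 209685_s_at the signals were 2782 and 2602 with EZH2 siRNA no.2 and 3189 with the unnumbered EZH2 siRNA, against 3262 and 4134 with the control siRNA. On 207957_s_at they were 2226 and 1525 with EZH2 siRNA no.2 and 2561 with the unnumbered EZH2 siRNA, against 2476 and 3214 with the control siRNA. Neither probe set had overlap between EZH2 siRNA no.2 and the control siRNA, and the log2 fold changes were −0.45 (SE 0.23) and −0.61 (SE 0.26). By replicate number they were −0.23 and −0.66 on 209685_s_at, and −0.15 and −1.06 on 207957_s_at. Without EZH2 siRNA no.2 replicate 2 the value on 207957_s_at was −0.34, and without control siRNA replicate 2 that on 209685_s_at was −0.28. The PRKCB groups of the other arm overlapped on 209685_s_at, with 3692 and 3599 in TSA, against 3323 and 3890 in DMSO. On 207957_s_at TSA was higher without overlap, with 3142 and 3009, against 2861 and 2544 in DMSO (log2 0.19, SE 0.26). The siRNA no.2 effect minus the TSA effect was −0.79 on 207957_s_at (95% interval −1.60 to 0.01) and −0.47 on 209685_s_at (95% interval −1.17 to 0.24), and neither passed (limma adjusted p = 1.00).

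JAK1, the tyrosine kinase that transmits cytokine and interferon signals, had 5569 and 3869 with EZH2 siRNA no.2 and 7027 with the unnumbered EZH2 siRNA, against 6264 and 7938 with the control siRNA. Both EZH2 siRNA no.2 arrays were the lowest of all 9. Its log2 difference was −0.60 (SE 0.26; adjusted p = 0.920 by limma), −0.17 in replicate 1 and −1.03 in replicate 2, and it was −0.34 without EZH2 siRNA no.2 replicate 2, while the unnumbered EZH2 siRNA gave −0.01 (SE 0.32). JAK1 in TSA had 8789 and 6639, against 8557 and 7074 in DMSO, and the log2 fold change was −0.03 (95% interval −0.60 to 0.54).

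CCND1 encodes cyclin D1, which drives the G1 phase of the cell cycle with CDK4 and CDK6. On 208712_at its signals were 6768 and 8421 with EZH2 siRNA no.2 and 5875 with the unnumbered EZH2 siRNA, against 7186 and 13927 with the control siRNA. Control siRNA replicate 2 stands far above the other arrays there, and without it the log2 fold change with EZH2 siRNA no.2 was 0.07 in place of −0.41. The second probe set, 208711_s_at, had 5348 and 6453 with EZH2 siRNA no.2 and 6538 with the unnumbered EZH2 siRNA, against 5165 and 7789 with the control siRNA (log2 −0.11, SE 0.25, for no.2).

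In TSA both CCND1 probe sets stood higher than in DMSO. They read 7860.04 and 9621 in TSA, against 4096 and 8113 in DMSO, on 208712_at, and 7301 and 6547 in TSA, against 4638 and 5069 in DMSO, on 208711_s_at. The log2 fold changes were 0.59 (SE 0.36) and 0.51 (SE 0.25), higher in both replicate numbers for each probe set, and only 208711_s_at had no overlap. Neither passed limma (adjusted p = 1.00). DMSO itself was lower than the control siRNA for CCND1, at −0.79 (SE 0.36) and −0.39 (SE 0.25), the first of these the largest difference between the control treatments among the 13 probe sets. Both comparisons rest on the same DMSO arrays. Without DMSO replicate 1 the TSA value on 208712_at was 0.10.

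**Figure D2:**
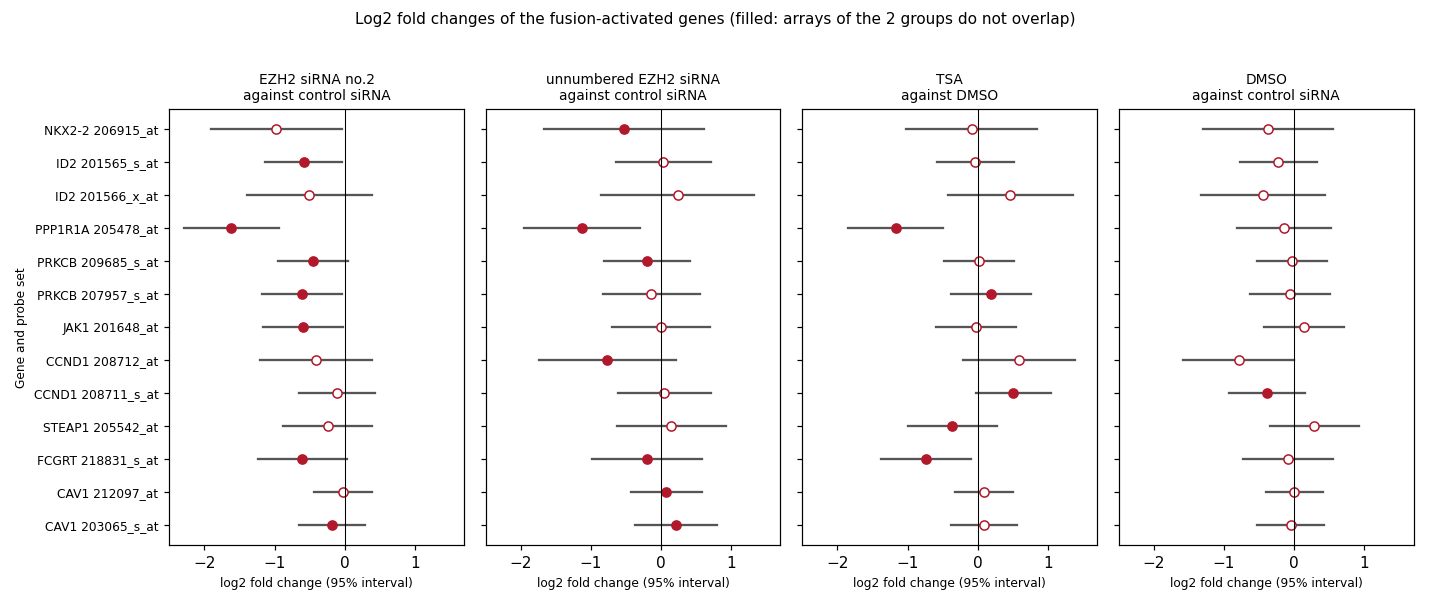
Log2 fold change with its 95% interval (limma, 9 arrays) for each probe set, in 4 comparisons; filled points have no overlap between the arrays of the 2 groups. PPP1R1A is at −1.62, −1.13, −1.17 and −0.15 from left to right, and CCND1 is on opposite sides of 0 for TSA against DMSO and DMSO against control siRNA.

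Of the membrane proteins, FCGRT, the neonatal Fc receptor that recycles IgG and albumin, had lower means in both arms. It had 2944 and 1822 with EZH2 siRNA no.2 and 3069 with the unnumbered EZH2 siRNA, against 4017 and 3102 with the control siRNA. In the other arm it had 2167 and 1816 in TSA, against 3864 and 2845 in DMSO. Neither replicated pair of groups overlapped, and each treated array was below its control of the same number. The log2 fold change was −0.60 (SE 0.29) with EZH2 siRNA no.2 and −0.73 (SE 0.29) in TSA. By replicate number it was −0.45 and −0.76 with EZH2 siRNA no.2, and −0.83 and −0.64 in TSA. The value with EZH2 siRNA no.2 was −0.26 without its replicate 2 and −0.95 without its replicate 1. Neither passed limma (adjusted p = 0.920 and 1.00), and the unnumbered EZH2 siRNA gave −0.20 (SE 0.35).

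STEAP1, a multi-pass surface protein of the metalloreductase family that is abundant in Ewing tumours, had 7269 and 4556 with EZH2 siRNA no.2 and 7515 with the unnumbered EZH2 siRNA, against 8442 and 5478 with the control siRNA. Those groups overlap (log2 −0.24, SE 0.29), and the value was 0.10 without EZH2 siRNA no.2 replicate 2 and 0.07 without control siRNA replicate 1. In TSA it had 6248 and 6650, against 9413 and 7330 in DMSO, without overlap (log2 −0.36, SE 0.29).

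CAV1, the coat protein of caveolae, differed little on its brighter probe set, 212097_at. Its signals were 15185 and 14409 with EZH2 siRNA no.2 and 15866 with the unnumbered EZH2 siRNA, against 15589 and 14550 with the control siRNA. They were 16635 and 15486 in TSA, against 15517 and 14624 in DMSO. The 95% interval of the log2 fold change was −0.44 to 0.38 with EZH2 siRNA no.2 and −0.32 to 0.50 in TSA. On 203065_s_at, EZH2 siRNA no.2 gave 9205 and 9483, against 10960 and 10203 with the control siRNA, without overlap and with a log2 fold change of −0.18 (SE 0.22). The unnumbered EZH2 siRNA array read 12231 there, above both control arrays (log2 0.21, SE 0.26). On the same probe set TSA had 9289 and 12639, against 9623 and 10824 in DMSO, and those groups overlap.

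In TSA the genes stood on both sides of DMSO. Over the 9 genes the median log2 fold change was −0.03, against 0.02 over all genes, and after quantile normalization it was 0.00. Of the 13 probe sets, 6 were lower and 7 higher than in DMSO. On the brightest probe set of each gene, 6 of the 9 genes were lower, where 46.5% of all genes were. Without overlap there were 3 lower (PPP1R1A, FCGRT and STEAP1) and 2 higher (CCND1 208711_s_at and PRKCB 207957_s_at), where 12.6% of the single-gene probe sets were lower and 16.3% higher without overlap. After adjustment 0 of 13 passed limma, as did 0 of the 13671 tested (0% called). With limma p under 0.05 before adjustment, 2 were lower (PPP1R1A and FCGRT) and 0 higher, against 1.17% lower and 1.24% higher of all tested. With the replicate number as a block, or the split seen in the hybridisation controls, 2 were lower and 2 higher, the higher ones being the CCND1 probe sets. Of all tested, 266 were lower and 335 higher with the replicate block. The ratio of the 3′ to the 5′ ACTB control signal, a measure of RNA integrity, was higher in TSA in both replicate numbers (1.25 and 1.44 in TSA, against 1.14 and 1.29 in DMSO). That of GAPDH was lower in replicate 1 and higher in replicate 2 (0.846 and 1.02 in TSA, against 0.997 and 0.968 in DMSO). The part of either in these values was not tested.

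**Figure D3:**
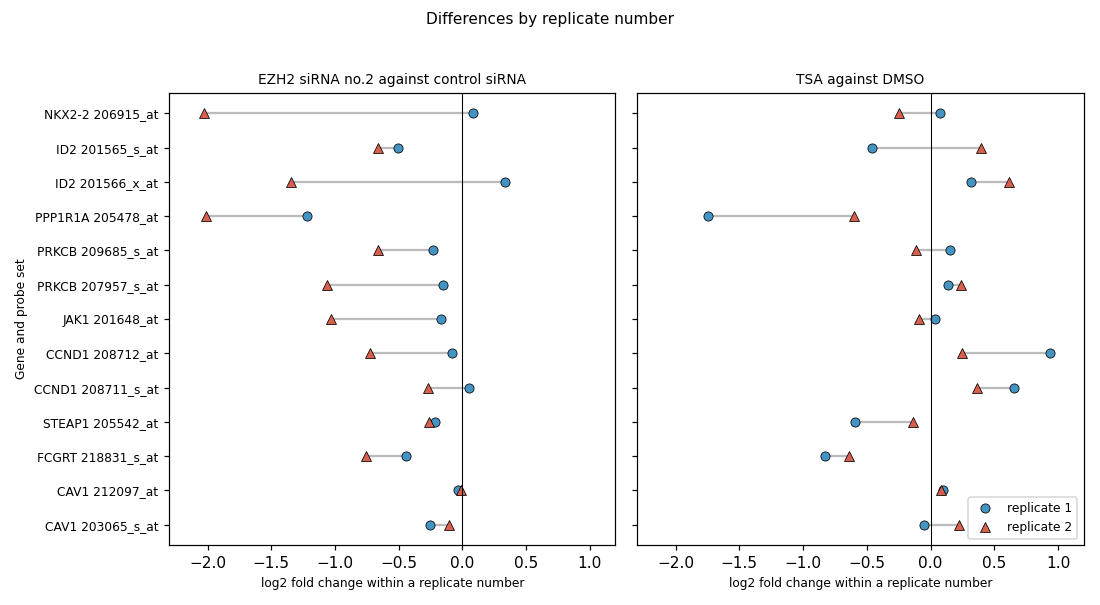
Log2 fold change of each probe set within replicate 1 (circles) and within replicate 2 (triangles), for EZH2 siRNA no.2 against control siRNA and for TSA against DMSO. With the siRNA 10 of 13 probe sets are lower in both numbers and 3 differ in sign; with TSA 3 are lower in both, 5 are higher in both and 5 differ in sign.

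With the unnumbered EZH2 siRNA the median over the 9 genes was −0.20, set against the same control arrays. The EZH2 signal of this array (681) was above those of both EZH2 siRNA no.2 arrays (572 and 271), and its part in these values was not tested. This array has no replicate, and limma lent it the spread of the replicated groups. There were 7 probe sets lower and 6 higher. On the brightest probe set of each gene, 6 of the 9 genes were lower, where 43.6% of all genes were. Of the 13, 5 lie below and 2 above both control arrays, where 27.3% and 39.6% of single-gene probe sets do so. None passed limma (0 of 13671 tested, 0% called), and only PPP1R1A had an unadjusted p under 0.05, against 2.19% lower and 2.81% higher of all tested. EZH2 siRNA no.2 was below the unnumbered EZH2 siRNA for 11 of the 13 probe sets without overlap and above it for 1, against 31.0% and 31.4% of single-gene probe sets, with a median of −0.40. Against the unnumbered siRNA array, EZH2 siRNA no.2 replicate 1 gave a median of −0.06 and replicate 2 one of −0.69. The hybridisation controls of the unnumbered array (9.80) were close to those of EZH2 siRNA no.2 replicate 1 (9.81). None of these differences passed limma (lowest adjusted p = 1.00, 0 of 13671 probe sets, 0% called), and 0 of 13 had an unadjusted p under 0.05, against 0.549% lower and 1.32% higher of all tested.

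DMSO against the control siRNA, where neither an EZH2 siRNA nor TSA was present but the time and the transfection differ, gave a median of −0.09 over the 9 genes, against 0.05 over all genes. Of the 13 probe sets 1 was lower without overlap, CCND1 208711_s_at, and 0 were higher, where 13.9% and 19.6% of single-gene probe sets were so. None passed limma (0 of 13671 tested, 0% called), and 0 of the 13 had an unadjusted p under 0.05, against 1.33% lower and 2.93% higher of all tested.

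The scaling of the arrays sets part of these counts. When all arrays were scaled to a common median, the median log2 fold change of all tested probe sets with EZH2 siRNA no.2 was −0.06 in place of 0.07, and the probe sets at an unadjusted limma p under 0.05 were 230 higher and 458 lower in place of 486 higher and 235 lower. The members' median over their 13 probe sets was then −0.64, against −0.50 as deposited and −0.50 after quantile normalization, and 13, 13 and 12 of the 13 were lower. Those lower without overlap were 10, 7 and 5. The share of all single-gene probe sets was counted only as deposited, at 12.7% lower. The 10 and the 5 therefore have no such share beside them and are not read as results about the members.

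Other genes that EWS/FLI is known to raise were taken from a list of 33, also chosen with earlier results of these data known. Of these, 28 were named and tested. With EZH2 siRNA no.2 their median was −0.13, against 0.07 over all genes, with 16 lower and 12 higher. Without overlap 7 were lower and 5 higher, against 12.7% and 22.5% of all single-gene probe sets. After adjustment 0 passed limma, and 3 were lower and 2 higher at an unadjusted p under 0.05, against 1.72% and 3.55% of all tested. The median was 0.03 with the unnumbered EZH2 siRNA and 0.00 in TSA, where 14 were lower and 14 higher, and 0 passed in either.

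The 3 of these genes with the smallest limma p with EZH2 siRNA no.2 were GRP, a neuropeptide growth factor, TERT, the catalytic subunit of telomerase, and GSTM4, a glutathione S-transferase. GRP had 4942 and 5481 with EZH2 siRNA no.2 and 6190 with the unnumbered EZH2 siRNA, against 8657 and 11449 with the control siRNA (log2 −0.93, SE 0.22, for no.2). In TSA it had 8483 and 8831, against 8633 and 7429 in DMSO, and those groups overlap. TERT had 122 and 68.6 with EZH2 siRNA no.2 and 30.8 with the unnumbered EZH2 siRNA, against 195 and 281 with the control siRNA, giving −1.14 (SE 0.34) and −2.22 (SE 0.41), at signals near the filter of 53.2. GSTM4, whose promoter is known for a GGAA microsatellite, had 1447 and 1559 with EZH2 siRNA no.2 and 1731 with the unnumbered EZH2 siRNA, against 2394 and 2543 with the control siRNA. In TSA it had 2014 and 1619, against 2708 and 2460.3 in DMSO. All 3 were lower with both EZH2 siRNAs without overlap, and none passed limma (adjusted p = 0.920 each with EZH2 siRNA no.2, and 0.790 for TERT with the unnumbered EZH2 siRNA).

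GSTM4 and PBK, a mitotic kinase, were the 2 of the 28 genes with all 5 treated arrays below all 4 control arrays, where 1.25% of all single-gene probe sets had that order and 1.99% the opposite one. PBK was named after its values had been seen, with 2134 to 2580 on the treated arrays, against 2830.1 to 3254 on the control arrays. KDSR, an enzyme of sphingolipid synthesis, also named after its values had been seen, was the 1 gene with the opposite order, with 2977 to 4115 on the treated arrays, against 2083 to 2938 on the control arrays. DKK2, a secreted Wnt modulator, was second by p with the unnumbered EZH2 siRNA and higher, with 2152 on that array and 1721 and 1694 with EZH2 siRNA no.2, against 1050 and 764 with the control siRNA. The smallest p values in TSA belonged to E2F3, an S-phase transcription factor, with 741 and 679 in TSA, against 424 and 397 in DMSO. NPY1R, a neuropeptide Y receptor, followed with 1120 and 817 in TSA, against 1419 and 1984 in DMSO, and then GSTM4. None of these passed limma (adjusted p = 0.951 for DKK2, and 1.00 for E2F3, NPY1R and GSTM4 in TSA).

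The genes whose pattern over the 9 arrays was most like PPP1R1A were sought among 9102 other genes, by the root mean square difference of log2 values centred on each gene's mean. RBX1, the ring-finger subunit of cullin ubiquitin ligases, was closest at 0.22, where the median gene was at 0.80 and the SD of PPP1R1A was 0.76. RIDA, a deaminase of reactive imines, was at 0.30 and RANGRF, a Ran-binding factor that helps sodium channels reach the membrane, at 0.32. RBX1 had 1910 and 1218 with EZH2 siRNA no.2 and 2183 with the unnumbered EZH2 siRNA, against 4664 and 4076 with the control siRNA. In the other arm it had 1709 and 2869 in TSA, against 4280 and 3105 in DMSO. RIDA had all 5 treated arrays, at 827 to 1204, below the 4 control arrays, at 1610 to 2938, and so had RANGRF, at 314 to 603 and 623 to 915.

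**Figure D4:**
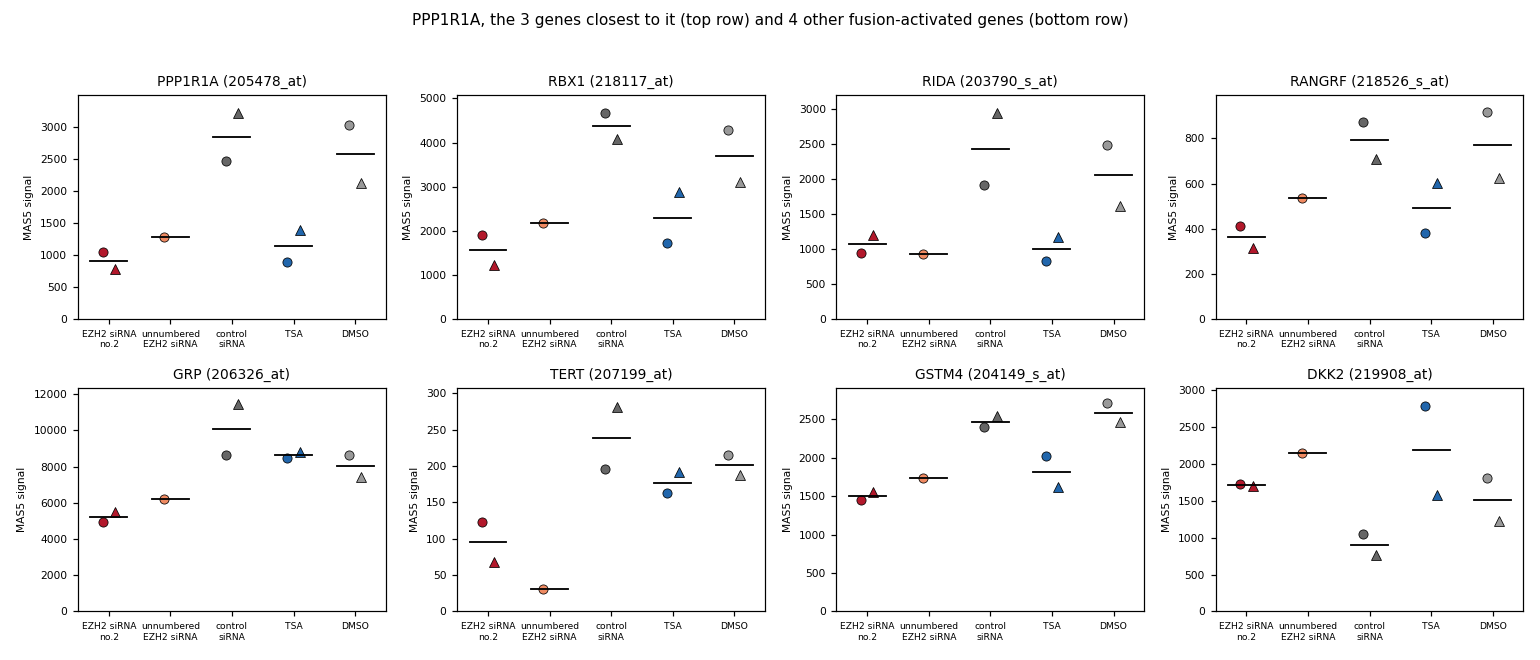
MAS5 signal (linear, from 0) on each array for PPP1R1A and the 3 genes closest to it over the 9 arrays (top row), and for 4 other fusion-activated genes (bottom row); circles are replicate 1 and the unnumbered EZH2 siRNA array, triangles replicate 2, bars group means. The top row is low on the 5 treated arrays, as its choice by likeness to PPP1R1A implies. GRP and TERT are lowest on the 3 EZH2 siRNA arrays and DKK2 is lowest with the control siRNA, at 1050 and 764.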

How the data were processed

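The deposited intensity values are Affymetrix MAS5 signals, made by the authors on the U133A array, per the submitters' processing notes. The version, scaling and detection calls behind them are not given in the sources used here. A trimmed mean near 500.2 was found on every array. Arrays of a group correlated at r = 0.933 to 0.960 over the tested probe sets, and the number of arrays limits the precision.

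Signals became log2(signal + 25.1), with the 20th percentile of all values as pseudocount. Probe sets that name 1 gene and have a mean signal of at least 53.2 (the 30th percentile) were tested, which left 13671. Of the 19065 single-gene probe sets, 19053 matched the RefSeq gene table. Group means of all 9 arrays were fitted with limma 3.58.1 in R 4.3.3 (eBayes with trend, 4 residual and 7.01 prior degrees of freedom). Tests were two-sided, Benjamini-Hochberg adjusted over all probe sets, at 0.05, in 6 comparisons. With 2 arrays a group, the smallest p an exact permutation test allows is 0.333.

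Every member probe set was named, with the 3 smallest p of each treatment comparison from the other fusion-activated genes. The members and lists were chosen with earlier results of these data known.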

Additional observations from a re-analysis of the deposited data

How the results depend on the processing

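The alternatives were other pseudocounts, filters and scalings, 1 probe set per gene, no eBayes trend, and a fit on the compared groups alone. Further ones were the 3 EZH2 siRNA arrays pooled, a replicate block, and a block from the split of the hybridisation controls. Each array was also left out in turn, which made 21 alternatives in all. Of the member values none passed in any of them. The number of probe sets past the adjusted threshold stayed 0 except for the unnumbered EZH2 siRNA with only its own groups, which gave 1. The median over the 9 genes with EZH2 siRNA no.2 ran from −0.73 to −0.40, at −0.40 without EZH2 siRNA no.2 replicate 2. With the unnumbered EZH2 siRNA it moved to −0.31 when all arrays were scaled to a common median, and ran from −0.20 to −0.049 (without control siRNA replicate 2) over the arrays left out. It ran from −0.23 (without TSA replicate 1) to 0.10 (without DMSO replicate 1) with TSA, and from −0.30 (without DMSO replicate 1) to 0.043 (without DMSO replicate 2) for DMSO against the control siRNA. The cause was not tested. Of 78 member values, 29 changed sign somewhere, among them STEAP1 and CCND1 with EZH2 siRNA no.2. PPP1R1A kept −1.82 to −1.41 with EZH2 siRNA no.2, −1.32 to −0.94 with the unnumbered EZH2 siRNA and −1.49 to −0.85 with TSA. Deviations of same-numbered arrays from their group means correlated at 0.10 to 0.41 between groups, with 2 pairs a comparison. The labels do not say what a number stands for, while the hybridisation controls set the replicate 2 arrays apart. The replicate block was fitted without the unnumbered array, so each group held both numbers. A block cannot move a difference of group means there, so the median of −0.59 with EZH2 siRNA no.2 could not change. With the block 0 probe sets passed in that comparison. Those at an unadjusted limma p under 0.05 were 817 higher and 366 lower, against 486 and 235 without it. With TSA that count was 335 higher and 266 lower with the block, against 170 higher and 160 lower without it. Signals near the pseudocount of 25.1, as for TERT with the unnumbered EZH2 siRNA, give compressed fold changes.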

Other observations

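Genes that EWS/FLI is known to repress include those of the extracellular matrix and of TGF-beta signalling. They were taken from a list of 15, also chosen with earlier results of these data known. Of these, 14 were named on the array. With EZH2 siRNA no.2 their median log2 fold change was 0.54, against 0.07 over all genes, with 12 higher and 2 lower, and 9 were higher without overlap, against 22.5% of all single-gene probe sets. In TSA the median was 0.38, against 0.02 over all genes, with 14 higher and 0 lower, and 8 were higher without overlap, against 16.3%. With the unnumbered EZH2 siRNA the median was 0.19. There 6 were higher and 2 lower without overlap, against 39.6% and 27.3% of all single-gene probe sets. For DMSO against the control siRNA the median was −0.21, with 9 lower. In that comparison 6 were lower and 1 higher without overlap, against 13.9% and 19.6%. The TSA values rest on the same DMSO arrays. None of the 14 passed limma after adjustment in these comparisons. An unadjusted limma p under 0.05 was reached by 4 higher genes with EZH2 siRNA no.2, by 1 with the unnumbered EZH2 siRNA and by 0 with TSA. Of all tested, 3.55%, 2.81% and 1.24% were higher at such a p. For DMSO against the control siRNA 2 genes were lower at such a p, against 1.33% of all tested.

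Of genes known to be raised by deacetylase inhibitors in other cells, such as CDKN1A, an inhibitor of cyclin-dependent kinases, 9 were named on the array. Their median in TSA was 0.05, against 0.02 over all genes, with 6 higher and 3 lower. Without overlap 2 were higher and 2 lower, against 16.3% and 12.6% of all single-gene probe sets. None of the 8 tested passed limma, and 0 had an unadjusted p under 0.05.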
